A study of Mus musculus with 4 samples.

Results

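The SLAM family receptor genes Slamf1, Cd48, Cd84, Ly9, Slamf6, Slamf7, Slamf8 and Slamf9 were compared between CD8α+ and CD8α− dendritic cells of the mouse spleen. Members were chosen by name, as every probe set whose single gene symbol in the platform annotation was one of these 8. This gave 13 of 45037 probe sets, 3 each for Slamf1 and Slamf6, 2 for Cd84 and 1 for each of the others. The 8 genes are among 18193 genes that the annotation names. RNA came from dendritic cells of C57BL/6 mice and was hybridised to Affymetrix Mouse Genome 430 2.0 arrays, with 2 arrays of CD8α+ cells and 2 of CD8α− cells. Age, treatment, the sorting scheme and the number of animals behind an array are not given in the sources used here, so the spread between arrays of a group may be technical.

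SLAM family receptors are immunoglobulin superfamily proteins of blood cells. Most of them bind the same receptor on a neighbouring cell, while CD48 is a lipid-anchored ligand for CD244 and CD2. Tyrosine switch motifs in the tails of several members recruit the small adaptors SAP and EAT-2, and through them or directly kinases and phosphatases. SLAMF8 and SLAMF9 have short tails without these motifs. In dendritic cells and macrophages the family is known for tuning cytokine release, phagocytosis and contacts with T cells and natural killer (NK) cells. Many members are also expressed by B, T, NK and plasma cells.

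The arrays differed in overall brightness, and CD8α− replicate 2 was the dimmest. Its median deposited signal was 17.4, against 22.9 to 35.1 on the other arrays, and its ratio of 3′ to 5′ signal over the Gapdh controls was 10.7, against 1.53 to 2.02. Signals were matched for overall brightness by quantile normalization before the comparison. It does not correct the high 3′ to 5′ ratio of CD8α− replicate 2, which limits the values below. After this step the CD8α+ arrays correlated at r = 0.955 across tested probe sets and the CD8α− arrays at r = 0.835. Cd8a, the gene that defines the groups, was brighter on both CD8α+ arrays than on both CD8α− arrays in its probe set of highest signal (deposited signals 2640 and 3102 against 22 and 19). Over 8 conventional dendritic cell markers the summed normalized signal was 30616 and 31083 in CD8α+ and 30551 and 22142 in CD8α− cells. All 8 exceeded background on every array. Quantile normalization gave Cd74 the same value on all arrays, 9781, and without it the sums were 20835 and 21301 against 20770 and 12361. Markers of type 1 conventional dendritic cells summed to 16524 and 16223 in CD8α+ and 5029 and 3280 in CD8α− cells. Of these 11 markers 10 had both CD8α+ arrays higher (25.6% of all tested genes did), and Batf3 had both CD8α− arrays higher (28.3%). The 10 include Cd8a, which defines the groups (2014 and 2335 against 15.2 and 27.0). Type 2 markers summed to 1383 and 1472 against 7037 and 4660, although the type 2 markers Itgam and Mgl2 were not above background on any array.

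No SLAM family gene passed the test over all probe sets. Nor did Cd8a, the gene that defines the groups (limma unadjusted p = 3.8e-05, adjusted p = 0.115), so not passing does not show like levels. With limma and Benjamini-Hochberg adjustment, 0 of 22519 probe sets (0.00%) had an adjusted p under 0.05, and the lowest adjusted p among the 8 family genes was 0.274, for Slamf8. At an unadjusted p under 0.05, 3500 probe sets (15.5%) were counted, 1746 brighter and 1754 dimmer in CD8α+ cells. That split was 2310 and 454 on the deposited scale, 1280 and 3784 with a common trimmed mean and 6018 and 855 with median centring. By the probe set that stands for each gene, 1 of the 8 family genes had an unadjusted p under 0.05 and a higher signal in CD8α+ cells, where 7.13% of all 10532 tested genes did, and 0 of 8 had a lower one, where 8.82% did. The median difference of the 8 genes was -0.18 on the log2 scale, against -0.02 over all tested genes. The arrays of the groups did not overlap for 5 of the 8, 2 with CD8α+ cells higher (25.6% of all tested genes) and 3 with CD8α− cells higher (28.3%). Of these 2, Slamf1 passed the filter on mean signal through its brighter CD8α+ arrays, so its place in the count is no support. Each difference below is the log2 normalized signal in CD8α+ cells less that in CD8α− cells, ± its standard error from the fit (n = 2 arrays in either group).

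**Figure D1:**
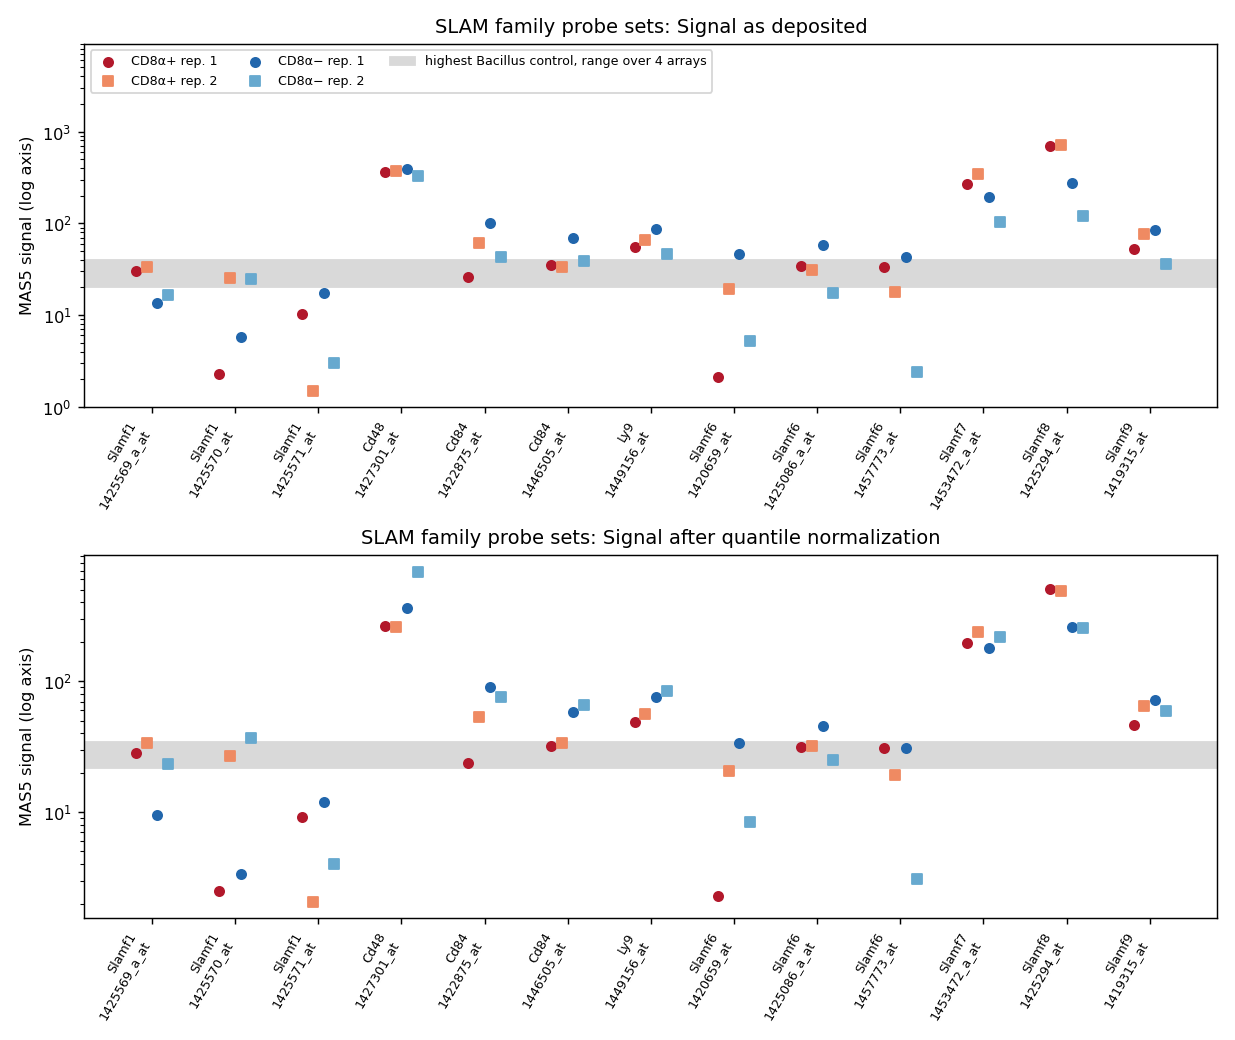
Signals of the 13 SLAM family probe sets on the 4 arrays, as deposited (top) and after quantile normalization (bottom), on a log axis. Points are arrays, coloured by population, and the grey band spans the highest Bacillus control over the 4 arrays, used as background. Slamf8, Cd48 and Slamf7 lie above the band on every array, and the Slamf1 and Slamf6 points lie within it, below it or just above it.

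Slamf8 was the family gene with the smallest p. It encodes a receptor with a short tail, known from macrophages, where it restrains the phagocyte oxidase and cell migration. Its deposited signals on probe set 1425294_at were 703 and 708 in the CD8α+ arrays and 278 and 120 in the CD8α− arrays. After normalization they were 505 and 489 against 258 and 253. Both CD8α+ arrays were higher than both CD8α− arrays on either scale, and the CD8α− arrays lay closer together after normalization. The difference was 0.96 ± 0.30, a 1.94-fold higher signal in CD8α+ cells, with a 95% interval of 0.15 to 1.77. The unadjusted p was 0.0292 and the adjusted p 0.274 (limma), so the gene did not pass over all probe sets. Of all tested genes, 1410 of 10532 (13.4%) had a larger difference towards CD8α+ cells. The 4 differences between single CD8α+ and CD8α− arrays ran from 0.921 to 0.996.

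The direction of Slamf8 was kept under each of the 13 other settings tried, with differences from 0.93 to 1.95. Those that changed only the filter, floor, error model or probe set average left the difference at 0.96, so its direction could not turn there. Leaving out an array could hardly turn it either, since every difference between single arrays was above 0. The unadjusted p was under 0.05 in 10 of the 13, and with a term for the replicate number it was 0.0868 (limma). Dropping CD8α+ replicate 1 or 2 gave 0.239 or 0.205. Macrophages are another cell type known to express Slamf8. Of the 11 macrophage markers on the array 6 had both CD8α− arrays higher (28.3% of all tested genes did), 1 had both CD8α+ arrays higher and 4 overlapped. They summed to 1035 and 1169 in CD8α+ and 1457 and 1978 in CD8α− cells, and C1qc was not above background on any array. Their part in the Slamf8 signal was not tested.

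The genes with the profile most like that of Slamf8 over the 4 arrays were Hp1bp3, Polr3a and Usf3, by Euclidean distance of log2 signals centred on each gene's mean (0.05, 0.06 and 0.07). Their differences were 0.94, 0.93 and 0.97. With 4 arrays in 2 groups, such closeness is a description of the profile only.

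Cd84 and Cd48 stood on the other side, with lower normalized signals in CD8α+ cells. CD84 binds CD84 on adjacent cells, and is known from B cells, platelets, mast cells and dendritic cells. Its probe set of highest signal, 1422875_at, had deposited signals of 25.8 and 60.8 in CD8α+ and 102 and 43.1 in CD8α− cells, and normalized signals of 23.9 and 53.4 against 90.4 and 76.1. On the deposited scale the groups overlapped, since CD8α+ replicate 2 exceeded CD8α− replicate 2. After normalization they did not, although the CD8α+ arrays differed from each other by 1.16 on the log2 scale. The difference was -1.21 ± 0.50 (limma adjusted p = 0.347), and 1 of the 2 CD8α+ arrays was not above background there, so no fold is given. By this probe set, or the mean of both, the gene kept its direction in each of the 13 other settings, with differences from -1.64 to -0.60. Those that changed only the filter, floor or error model left the difference at -1.21, so its direction could not turn there. Leaving out an array could hardly turn it either, since the differences between single arrays ran from -1.92 to -0.51. The unadjusted p was under 0.05 in 3 of the 13.

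The second Cd84 probe set, 1446505_at, gave a like value with less spread. Its deposited signals were 35.0 and 33.1 in CD8α+ and 70.0 and 38.5 in CD8α− cells, and its normalized signals were 32.1 and 33.9 against 57.9 and 66.2. The CD8α− arrays were higher on both scales. The difference was -0.91 ± 0.31, with a 95% interval of -1.74 to -0.08, a 1.88-fold lower signal in CD8α+ cells (limma unadjusted p = 0.0376, adjusted p = 0.292). All 4 arrays exceeded background, the CD8α+ replicate 1 signal of 32.1 only narrowly, with background at 30.8 on that array. Among tested probe sets 7.79% were lower in CD8α+ cells at an unadjusted p under 0.05. The unadjusted p was 0.314 on the deposited scale, 0.172 with median centring and 0.291 or 0.263 without CD8α+ replicate 1 or 2. Averaging both probe sets gave -1.06 (limma unadjusted p = 0.0282).

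For Cd48, the ligand of CD244 and CD2, the sign of the difference rested on how the arrays were scaled. The deposited signals on probe set 1427301_at were close on all arrays, 364 and 369 in CD8α+ and 388 and 324 in CD8α− cells. Matching the arrays turned them into 265 and 258 against 363 and 688, with CD8α− replicate 2 highest. The difference was -0.94 ± 0.43 after normalization, with a 95% interval of -2.09 to 0.21 (limma adjusted p = 0.381). It was 0.05 on the deposited scale, 0.05 with median centring and -0.76 with a common trimmed mean. Relative to the median gene, which stood at 0.67, 0.69 and -0.18 under these scalings, the values were -0.62, -0.64 and -0.58. These scalings differ by a single factor per array, so subtraction of the median gene made the values alike in advance. The deposited scale and median centring gave nearly the same differences for family genes tested in both, so they are not separate checks. Without CD8α− replicate 1, where the dimmest array alone stands for CD8α− cells, the difference was -1.40. Without CD8α− replicate 2 it was -0.48.

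**Figure D2:**
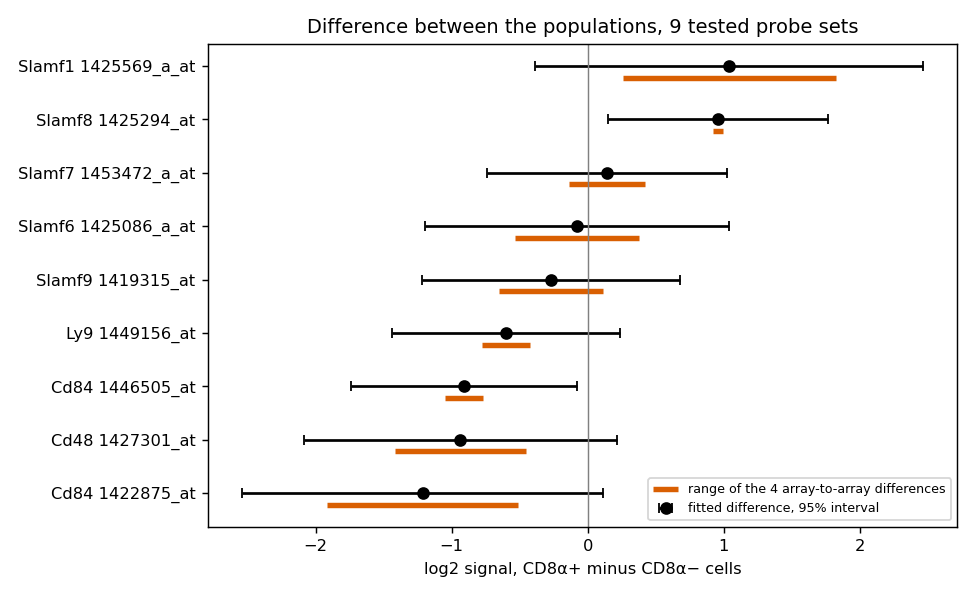
Differences in log2 normalized signal between CD8α+ and CD8α− cells for the 9 SLAM family probe sets that were tested. Black points are the fitted differences with their 95% intervals, and orange bars span the 4 differences between single arrays. The intervals of Slamf8 (0.15 to 1.77) and of the second Cd84 probe set (-1.74 to -0.08) leave out 0, and those of the other 7 include it.

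Sequences upstream of the start of Slamf8, the member with the smallest p, and of Cd84 and Cd48, the members above with lower normalized signals there, are shown from the RefSeq promoter table of build GRCm38.p6, in which 7 of the 8 genes were found and Ly9 was not. Each line holds the 250 bases before the start, read 5′ to 3′ on the gene's strand. The windows are chr1:172590569-172590818 on the minus strand for Slamf8, chr1:171839447-171839696 on the plus strand for Cd84 and chr1:171681742-171681991 on the plus strand for Cd48. Capitals mark matches, on either strand, to letters bound by factors of dendritic cells: GAGGAA for ETS factors such as PU.1, TGANTCA for AP-1 and, for interferon regulatory factors, GAAA followed by GAAA after 2 bases of any kind.
Slamf8: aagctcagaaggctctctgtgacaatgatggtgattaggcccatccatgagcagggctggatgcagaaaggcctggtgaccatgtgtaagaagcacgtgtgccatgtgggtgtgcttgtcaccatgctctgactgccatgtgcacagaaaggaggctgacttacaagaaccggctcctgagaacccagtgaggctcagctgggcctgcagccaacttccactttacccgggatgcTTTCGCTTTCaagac
Cd84: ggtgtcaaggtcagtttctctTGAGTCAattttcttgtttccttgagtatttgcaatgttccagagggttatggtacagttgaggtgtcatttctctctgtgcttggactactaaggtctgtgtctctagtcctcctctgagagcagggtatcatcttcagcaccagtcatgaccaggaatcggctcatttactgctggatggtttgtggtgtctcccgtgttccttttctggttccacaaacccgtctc
Cd48: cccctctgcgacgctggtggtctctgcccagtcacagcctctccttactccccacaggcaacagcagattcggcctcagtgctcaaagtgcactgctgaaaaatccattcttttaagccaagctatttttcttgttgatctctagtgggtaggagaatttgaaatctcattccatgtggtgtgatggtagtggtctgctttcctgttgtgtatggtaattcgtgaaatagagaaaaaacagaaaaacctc

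The Slamf8 window held 1 match to the interferon regulatory factor pattern, on the opposite strand and beginning 15 bases before the start, a pattern found in 2.98% of the 32851 promoter windows of the table. The Cd84 window held 1 match to TGANTCA, beginning 229 bases before the start, as did the Slamf7 window at 42 bases, where 6.75% of all windows held one. GAGGAA, found in 23.25% of windows, was matched once, in Slamf9. The windows of Cd48, Slamf1 and Slamf6 held none of these letters. A match of letters is a description of the window and not evidence of a binding site.

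Ly9 and Slamf7, further receptors whose tails bind the SAP family adaptors, gave smaller differences. Ly9 encodes CD229, which binds CD229 on other cells and is abundant on lymphocytes. Its deposited signals were 55.6 and 65.6 in CD8α+ and 87.1 and 46.2 in CD8α− cells, so the groups overlapped before normalization. The normalized signals were 48.8 and 56.6 against 76.0 and 83.8, with both CD8α− arrays higher. The difference was -0.60 ± 0.31, with a 95% interval of -1.44 to 0.24 (limma adjusted p = 0.420). It was negative in each of the 13 other settings, from -0.88 to -0.07. Those that changed only the filter, floor, error model or probe set average left it at -0.60, so its sign could not turn there. Leaving out an array could hardly turn it either, since the differences between single arrays ran from -0.78 to -0.43.

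SLAMF7 binds itself and is known from NK and plasma cells and as a promoter of phagocytosis by macrophages. The Slamf7 probe set read 268 and 342 in CD8α+ and 192 and 104 in CD8α− cells as deposited, with both CD8α+ arrays higher. After normalization the signals were 198 and 239 against 178 and 218, and the groups overlapped. The difference was 0.14 ± 0.33, with a 95% interval of -0.74 to 1.02 (limma adjusted p = 0.849), which does not show that the populations have like levels. It was 1.10 on the deposited scale and 1.10 with median centring, or 0.43 and 0.42 relative to the median gene. Without CD8α− replicate 1 the difference was -0.0042.

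Slamf1 and Slamf6 were read near background. Slamf1 encodes CD150, which binds itself and is known in macrophages as a sensor of bacteria that acts in phagosome maturation. The brightest of its 3 probe sets, 1425569_a_at, had deposited signals of 30.4 and 33.0 in CD8α+ and 13.6 and 16.5 in CD8α− cells, and normalized signals of 28.1 and 33.8 against 9.57 and 23.5. The CD8α+ arrays were the higher ones on both scales, but only 1 of them exceeded background and neither CD8α− array did. The fitted difference of 1.04 ± 0.54 (limma adjusted p = 0.415) therefore rests on signals within background. This probe set passed the filter of 23.0 on mean signal through its CD8α+ arrays, and Slamf1 was tested in only 8 of the 13 other settings. The other 2 Slamf1 probe sets were too dim to be tested and overlapped between the groups, with normalized signals of 2.07 to 36.8.

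Slamf6, known as Ly108 in mice, binds itself and is known for its part in the development of innate-like T cells. On its brightest probe set, 1425086_a_at, the normalized signals were 31.3 and 32.2 in CD8α+ and 45.4 and 24.9 in CD8α− cells. The CD8α− arrays lay on either side of the CD8α+ arrays, and CD8α− replicate 2 was not above background. The difference was -0.08 ± 0.42, with a 95% interval of -1.20 to 1.04 (limma adjusted p = 0.934). Its other 2 probe sets were not tested and overlapped as well, from 2.30 to 33.7.

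Slamf9, the second member with a short tail, is known from plasmacytoid dendritic cells and macrophages. Its deposited signals were 52.0 and 77.1 in CD8α+ and 83.5 and 35.6 in CD8α− cells, and its normalized signals 46.0 and 64.3 against 72.2 and 59.6. All 4 arrays exceeded background and the groups overlapped on both scales. The difference was -0.27 ± 0.36, with a 95% interval of -1.22 to 0.68 (limma adjusted p = 0.722). The plasmacytoid markers, 8 on the array, summed to 1058 and 1167 in CD8α+ and 1576 and 2317 in CD8α− cells. Tcf4 made up much of these sums, with 650 and 762 against 1198 and 1808, and without it they were 409 and 405 against 378 and 509. Of the 8, 1 had both CD8α+ arrays higher (25.6% of all tested genes did), 2 had both CD8α− arrays higher (28.3%) and 5 overlapped. The part of such cells in the Slamf9 signal was not tested.

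**Figure D3:**
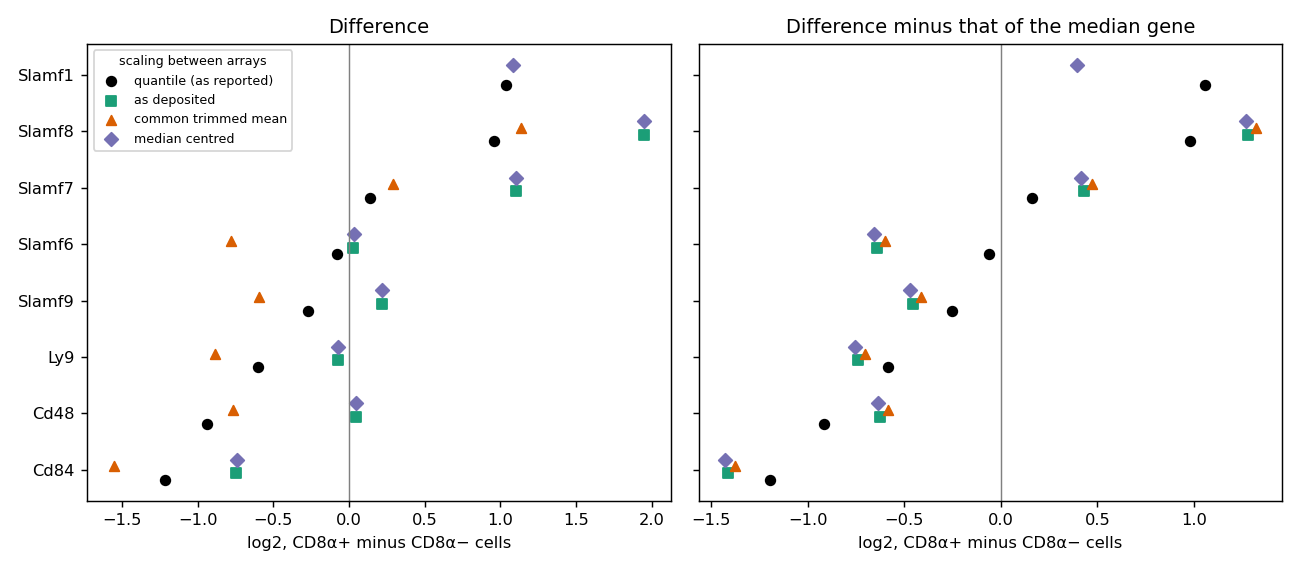
Differences of the 8 SLAM family genes under 4 ways of scaling the arrays, as fitted (left) and after subtraction of the difference of the median gene (right), on the log2 scale. Each symbol is one scaling; Slamf1 was below the filter on dim probe sets on the deposited scale and with the common trimmed mean. Slamf8 is above 0 and Cd84 below 0 in each case shown, while Cd48, Slamf6 and Slamf9 change side on the left and lie below 0 on the right. On the right, the scalings other than quantile nearly coincide by construction, since they differ by a single factor per array.

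The family was also set against Cd48 within each array, a log2 ratio of deposited signals into which no scaling factor between arrays enters. Slamf8 stood at 0.95 and 0.94 relative to Cd48 in the CD8α+ arrays and at -0.48 and -1.44 in the CD8α− arrays, a shift of 1.90 with no overlap. Slamf7 shifted by 1.05, from -1.02 and -1.64 in CD8α− to -0.44 and -0.11 in CD8α+ arrays, again with no overlap. Cd84 shifted the other way, by -0.79, and its ratios overlapped (-3.82 and -2.60 against -1.93 and -2.91). Slamf1, read near background, shifted by 1.03 with no overlap (-3.58 and -3.48 against -4.84 and -4.30). Ly9, Slamf6 and Slamf9 shifted by -0.12, -0.02 and 0.17. These ratios show unequal differences between members and do not say which of 2 genes differed. They do not remove the high 3′ to 5′ ratio of CD8α− replicate 2 as a limit. The ratios were not tested.

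Markers of other blood cells that express SLAM family genes were read beside these values. The 10 NK cell markers on the array summed to 1185 and 1341 in CD8α+ and 4360 and 2620 in CD8α− cells. Of them 7 had both CD8α− arrays higher (28.3% of all tested genes did), 1 had both CD8α+ arrays higher and 2 overlapped. Of the 8 family genes 3 had both CD8α− arrays higher after normalization (Cd84, Cd48 and Ly9), and 2 had both CD8α+ arrays higher, of which Slamf1 was read near background. The other 3 overlapped, among them Slamf7, which is known from NK cells. The 7 monocyte and neutrophil markers summed to 9105 and 9770 against 17919 and 16121, and the 6 plasma cell markers to 1846 and 1743 against 3291 and 3151, with Tnfrsf17 not above background on any array. Jchain made up much of the plasma cell sums, with 1175 and 1151 against 2677 and 2034. Without Jchain they were 671 and 592 against 614 and 1118. Of these 6 markers 3 had both CD8α− arrays higher (28.3% of all tested genes did) and 3 overlapped. The 9 B cell markers summed to 360 and 364 against 329 and 466, with Fcer2a and Pax5 not above background on any array, and the 9 T cell markers to 584 and 779 against 612 and 636, with Lat not above background. The 4 erythroid markers summed to 127 and 99.2 against 153 and 408, with Alas2 and Klf1 not above background. Without Car1, the brightest of them, the sums were 48.8 and 36.0 against 47.3 and 87.3. The part of other cells in the SLAM family signals was not tested. In these bulk samples fewer cells of a type and less RNA per cell cannot be told apart.

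The 8 genes lie near each other on mouse chromosome 1, with fitted differences of both signs along it after quantile normalization. In the RefSeq gene order of GRCm38.p6 the first 6 are Ly9, Slamf7, Cd48, Slamf1, Cd84 and Slamf6, with no other tested gene between them, and Slamf9 and Slamf8 follow further on. Their differences in that order were -0.60, 0.14, -0.94, 1.04, -1.21 and -0.08, then -0.27 and 0.96. The alternation was not kept on the deposited scale, where Cd48, Slamf6 and Slamf9 turned to 0.05, 0.03 and 0.22, and the 1.04 of Slamf1 rests on signals within or below the background band. Between the outermost members lie 35 other entries, 17 of them on the array and 9 tested. Of these 9, 0 had an unadjusted p under 0.05 with a higher signal in CD8α+ cells (7.13% of all tested genes) and 2 had one with a lower signal (8.82%): Pea15a, a regulator of MAP kinase signalling and cell death (-1.08 ± 0.32, limma adjusted p = 0.255), and Pigm, an enzyme of the lipid anchor on which CD48 also depends (-1.08 ± 0.34, adjusted p = 0.274). The other 7 ran from -0.87 for Vangl2 to 2.35 for Copa. Pigm and Vangl2 each exceeded background on only 1 of the 2 CD8α+ arrays. The median of the 9 was 0.06.

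**Figure D4:**
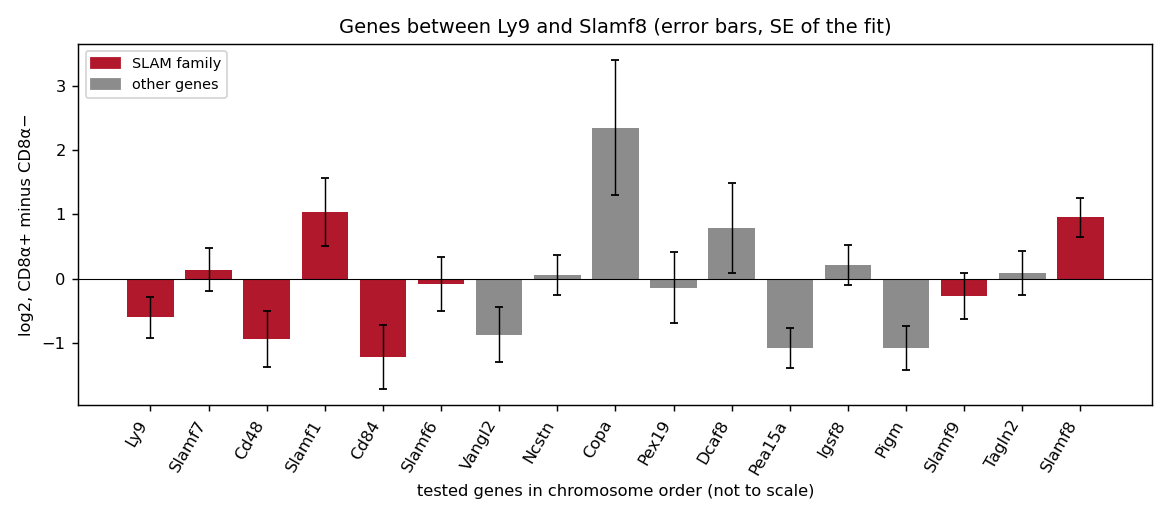
Differences in log2 normalized signal between CD8α+ and CD8α− cells for the 17 tested genes from Ly9 to Slamf8, in chromosome order and not to scale. Bars are fitted differences and error bars their standard errors; SLAM family genes are red. The red bars alternate in direction from Ly9 to Cd84, between -1.21 for Cd84 and 1.04 for Slamf1, which with Cd48 at 0.05 was not kept on the deposited scale.

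Genes that act with the family were read from lists of partners. Of 27 partner genes on the array 25 were tested, of which 0 were higher and 7 lower in CD8α+ cells at an unadjusted p under 0.05, against 7.13% and 8.82% of all tested genes, and 18 were not counted. None passed over all probe sets, the lowest adjusted p being 0.115 (limma). Their median difference was -0.38, against -0.02 over all tested genes. The 7 became 3 on the deposited scale, with Plcg1 higher and Fcer1g and Fgr lower. With median centring they became 6, with Becn1, Inpp5d, Plcg1 and Ptpn11 higher and again Fcer1g and Fgr lower. Of all tested genes 33.1% were counted with that setting, 28.9% as higher. These higher genes were named after their values were seen. The count of partners moved widely when an array was left out. Such fits leave a single array in a group, so their counts are not listed.

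Of the binding partners of CD48, Cd2 and the dimmer of 2 Cd244a probe sets were lower in CD8α+ cells at an unadjusted p under 0.05. CD2 is an adhesion receptor of T and NK cells that is also found on some dendritic cells. Its deposited signals were 58.6 and 81.5 in CD8α+ and 138 and 91.1 in CD8α− cells, with both CD8α− arrays higher. After normalization they were 51.0 and 67.1 against 126 and 188, a difference of -1.40 ± 0.38 (limma unadjusted p = 0.0178, adjusted p = 0.239). It was -0.70 on the deposited scale (limma unadjusted p = 0.245) and -0.69 with median centring (0.171). Cd244a, which encodes the receptor 2B4, had 2 probe sets. The brighter, 1449991_at, read normalized signals of 332 and 411 against 737 and 322 and overlapped (-0.40 ± 0.51), and turned to 0.60 on the deposited scale. The other, 1426120_a_at, read 43.1 and 41.1 against 88.5 and 109 and did not overlap (-1.22 ± 0.32, limma unadjusted p = 0.0152, adjusted p = 0.227). Dropping CD8α− replicate 1 turned the brighter set to 0.21, and dropping CD8α− replicate 2 gave -0.99. Of 10 NK cell markers 7 had both CD8α− arrays higher (28.3% of all tested genes did), 1 had both CD8α+ arrays higher and 2 overlapped. Of 9 T cell markers 3 had both CD8α− arrays higher (28.3% of all tested genes), 3 had both CD8α+ arrays higher (25.6%) and 3 overlapped. The part of such cells in the Cd2 signal was not tested.

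Of the adaptors, Sh2d1a, which encodes SAP, was read near background, with normalized signals of 39.0 and 15.5 in CD8α+ and 20.1 and 25.3 in CD8α− cells and a difference of 0.13 ± 0.55 (limma adjusted p = 0.921). The genes of EAT-2 and its mouse paralogue, Sh2d1b1 and Sh2d1b2, were not analysed here, nor were the kinases Lyn and Lck. Among 13 tested kinases, phosphatases and effectors that bind the tails or their adaptors, 4 were lower in CD8α+ cells at an unadjusted p under 0.05 (8.82% of all tested genes) and 0 higher (7.13%). They were the Src family kinase Fgr (-2.92 ± 0.44), the phosphatase SHP-1 gene Ptpn6 (-1.30 ± 0.37), the adaptor Dok2 (-1.12 ± 0.35) and the exchange factor Vav1 (-0.96 ± 0.36). Fgr read 93.8 and 96.8 against 520 and 1001, and its second probe set gave -2.00. For Vav1 the difference turned to 0.01 on the deposited scale and 0.02 with median centring. Ptpn6 came to -0.33 under both scalings (limma unadjusted p = 0.540 and 0.465), and its second tested probe set gave -0.45. Dok2 came to -0.99 and -0.98 (limma unadjusted p = 0.189 and 0.0506). Its normalized signals in CD8α+ cells, 22.7 and 19.0, were not above background, so the size of its difference is uncertain. The kinase Fyn, which SAP recruits, overlapped between groups (0.46 ± 0.55), and the phosphatase genes Inpp5d (0.99 ± 0.42) and Ptpn11 (1.45 ± 0.74) had both CD8α+ arrays higher without passing an unadjusted p of 0.05. A second tested Ptpn11 probe set gave -1.36 and overlapped, and the mean of the Ptpn11 probe sets was 0.05.

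Fcer1g and Tyrobp, the signalling chains that work with SLAMF7 in phagocytosis, had lower signals in CD8α+ cells. Fcer1g, the shared Fc receptor chain, read normalized signals of 327 and 388 in CD8α+ and 2348 and 3120 in CD8α− cells. These groups lay far apart, at a difference of -2.93 ± 0.34 (limma unadjusted p = 0.000613, adjusted p = 0.115). Tyrobp, the gene of DAP12, read 2163 and 2599 against 4465 and 5057, a difference of -1.003 ± 0.32 (limma unadjusted p = 0.0304, adjusted p = 0.277). It was -0.36 on the deposited scale (limma unadjusted p = 0.4998) and -0.36 with median centring (0.455). The integrin chain Itgb2 (-0.45 ± 0.30), the kinase Syk on its brightest probe set (-0.38 ± 0.75) and Btk (0.07 ± 0.43) had an unadjusted p of 0.05 or above, and Itgam was too dim to be tested. Another Syk probe set, 1418262_at, did not overlap (-1.63 ± 0.37, limma unadjusted p = 0.0087, adjusted p = 0.193). NK cell, monocyte and neutrophil markers were higher in CD8α− cells as well, and their part in these differences was not tested.

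The class III phosphoinositide 3-kinase complex, which SLAMF1 engages on phagosomes, had 4 tested genes and none with an unadjusted p under 0.05. The scaffold Becn1 gave 1.48 ± 0.89 on its brightest probe set, with signals of 1357 and 1326 in CD8α+ and 1138 and 202 in CD8α− cells. CD8α− replicate 2 stood far below the other CD8α− array there, and the other tested Becn1 probe sets ran from -0.57 to 0.73. The kinase Pik3c3 (-0.13 ± 0.31), its regulatory subunit Pik3r4 (0.16 ± 0.55) and Uvrag (-0.28 ± 0.37) overlapped between the groups.

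**Figure D5:**
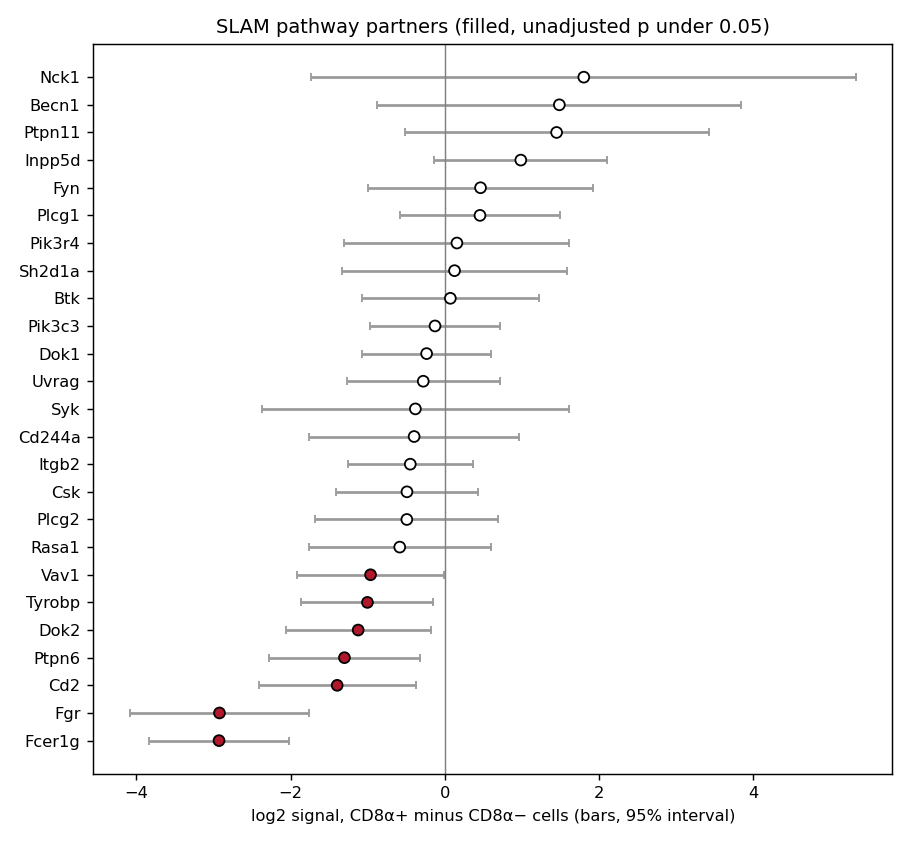
Differences in log2 normalized signal between CD8α+ and CD8α− cells for the 25 tested partners of the SLAM family, with 95% intervals. Filled points mark the 7 genes with an unadjusted p under 0.05, which are lower in CD8α+ cells here, Vav1 turning to 0.01 on the deposited scale; Fcer1g and Fgr lie lowest, at -2.93 and -2.92.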

How the data were processed

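The authors deposited an intensity for each probe set and array, on a linear scale without detection calls. The submitters' processing notes name MAS5, with no scaling target stated. The log2 signals of all 45101 probe sets were quantile normalized, 64 controls were left out, and values below 6.99, the 25th percentile averaged over arrays, were set to it. Probe sets with a mean signal of at least 23.0, the median, were tested with limma 3.58.1 under R 4.3.3 (lmFit, then eBayes with no trend, 2 residual and 2.48 prior degrees of freedom, two-sided, Benjamini-Hochberg over all tested probe sets). The model was checked on simulated data. An exact permutation test of 2 arrays against 2 cannot give a two-sided p below 0.333 and was not used. The tested probe set of highest mean signal stood for a gene, leaving out names ending in _x_at where another existed. Background was the highest of 27 Bacillus controls on each array, 30.8 and 21.8 in CD8α+ and 28.3 and 34.5 in CD8α− replicates 1 and 2 after normalization. The number of arrays limits the precision. Members, lists and alternatives were chosen with earlier results of these data known. Named were every member probe set, the adaptors and CD48 partners, partners and neighbouring genes with an unadjusted p under 0.05 and the 3 genes nearest to the member of largest difference among those above background; other partners and neighbours were named after their values were seen. Promoters and gene order come from RefSeq tables of GRCm38.p6, where all 8 members matched by Entrez identifier. Python 3.11.15 with pandas 2.3.3 and matplotlib 3.10.9 made the tables and plots.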

Additional observations from a re-analysis of the deposited data

How the results depend on the processing

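The count of SLAM family genes with an unadjusted p under 0.05, 1 as reported, was 3 with a common trimmed mean (1 higher, 2 lower in CD8α+ cells), 2 each with median centring, no filter, an intensity trend and the mean of probe sets, and 0 with a replicate block, where Slamf8 had an unadjusted p of 0.0868. Leaving out an array gave 0 to 2 family genes, 2 to 17 partners, 1179 to 9906 probe sets at an unadjusted and 0 to 3543 at an adjusted p under 0.05; the highest values came without CD8α− replicate 1, where only the CD8α+ pair gives the spread and the lone array is assumed to vary like it. Partners numbered 3 on the deposited scale and 5 (1 higher, 4 lower) with a replicate block, where Tyrobp had an unadjusted p of 0.0758 and the Cd84 probe set 1446505_at one of 0.101. All probe sets at an unadjusted p numbered 6873 with median centring and 6555 with no filter, and at an adjusted p 406 with median centring, 60 with an intensity trend and 14 with a replicate block. Signs turned for Cd48 (0.0472), Slamf6 (0.0300) and Slamf9 (0.216) on the deposited scale and with median centring (0.0491, 0.0319 and 0.218), and without CD8α− replicate 1 for Slamf6 and Slamf7, whose values ran from -0.55 to 0.37 and from -0.0042 to 0.30 when single arrays were left out. The cause of these changes was not tested. The deposited scale and median centring gave nearly the same differences for the family genes tested in both, so they are not separate checks. Of 99 values of single family genes under the alternatives, 80 kept direction and side of the threshold. The 99 include settings that leave the fitted difference unchanged, where the direction could not turn. Same-numbered arrays deviated together at r = 0.03 across probe sets, so the numbers were not taken as pairs; the block called 3627 probe sets against 3500. Signals near background limit Slamf1 and Slamf6, whose values on the dimmer probe sets carry no order.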
